A study of Mus musculus with 24 samples.

Results

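The comparison described here sets the end of a RANKL time course against its start: 6 arrays of bone marrow-derived macrophages (BMMs) exposed to RANKL for 72 h and 6 arrays of BMMs labelled as the 0 h control, which are 12 of the 24 arrays measured. The members were taken by their labels alone. The cells came from tibias and femurs of male C57BL/6 mice aged 5 weeks. Marrow was first kept for 24 h, the cells still floating were grown for 72 h in 30 ng/ml M-CSF, and the attached cells were then given 100 ng/ml RANKL in addition to 30 ng/ml M-CSF. The 0 h group had seen M-CSF but no RANKL. A group held for 72 h in M-CSF without RANKL is not among the arrays, so the effect of RANKL and that of 3 further days of culture cannot be told apart. The labels do not say whether the 6 samples of a group were separate cultures or separate animals, so the p-values rest on a spread among arrays that may be technical only.

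RANKL is the cytokine that turns macrophage precursors into osteoclasts, the multinucleated cells that dissolve bone. It binds its receptor RANK, raises c-Fos and NFATc1, and leads to cell fusion, an acid-secreting membrane and the release of proteases. M-CSF keeps the precursors alive and dividing, and osteoclasts themselves no longer divide. Marrow cultures start from a mixture of blood-forming lineages, of which macrophages attach and expand while granulocytes, platelets and lymphocytes are usually lost.

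The arrays carried 45281 probes. Between 15781 and 16539 probes per array were detected (detection p under 0.05) on the 12 arrays, and the median signal lay between 89.5 and 118 before normalization. A gene was represented by its detected probe of highest mean signal, which gave 9917 genes. Arrays of the same time were alike, with Pearson's r over these genes of 0.995 to 0.997 within 0 h and 0.995 to 0.998 within 72 h, against 0.933 to 0.939 between the times. The first principal component, which separated the times, held 91.7% of the variance of the 12 arrays. Of the macrophage markers, Csf1r, Adgre1, Mertk, Fcgr1, Itgam and Lyz2 were detected on all 12 arrays, so the label of macrophage was borne out at both times. Several probes were not detected even for genes that every cell uses, such as the ribosomal protein genes Rps20 and Rpl14, and a probe that was not detected is therefore not read as lack of the RNA.

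After 3 days most genes had moved, and most of them by little. Of 9917 genes, 3387 were higher (34.2%) and 3904 lower (39.4%) at an adjusted p under 0.05 (limma, Benjamini-Hochberg), 73.5% in all. The median fold was 1.34 among the higher and 1.35 among the lower genes. A change of at least 2-fold was reached by 452 genes upward (4.56%) and 519 downward (5.23%). The large changes were more often losses: 67 genes were at least 4-fold higher and 130 at least 4-fold lower, and 10 were at least 8-fold higher against 42 lower. All 6 arrays at 72 h lay above all 6 at 0 h for 2483 genes (25%) and below them for 2906 (29.3%). For genes changed at least 2-fold, 583 of the 613 other detected probes of the same genes moved the same way (95.1%). Markers of granulocytes and monocytes fell over the same interval, as detailed with the lineages further on, and their part in the changes of other genes was not tested. In bulk RNA, fewer cells of a type and less RNA per cell cannot be told apart.

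**Figure D1:**
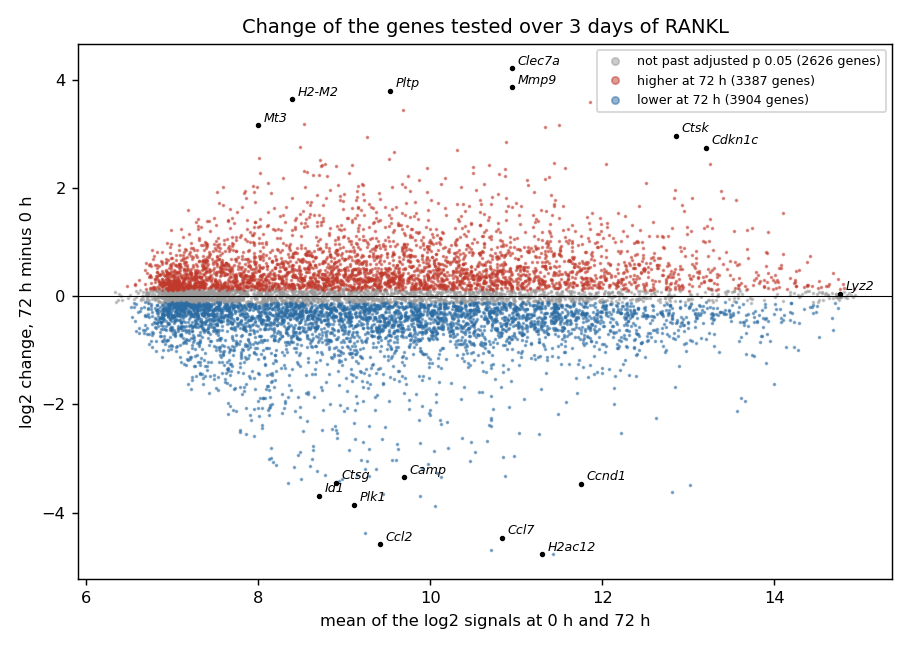
Change in log2 signal from 0 h to 72 h (vertical axis) against the mean of the log2 signals at both times (horizontal axis) for the 9917 genes tested, 1 point per gene, coloured by the call at an adjusted p of 0.05. The named falls (down to -4.77 for H2ac12) reach further from 0 than the named rises (up to 4.21 for Clec7a).

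The largest rise was that of Clec7a, which encodes Dectin-1, a receptor for fungal beta-glucan. Its log2 signal ran from 8.71 to 9.06 at 0 h (median 8.83) and from 12.79 to 13.16 at 72 h (median 13.10). The groups lay far apart, and the change was 18.5-fold (adjusted p = 1.65e-35). A second Clec7a probe gave 7.89-fold. Mmp9, a gelatinase of osteoclasts, went from 8.91 to 9.14 (median 9.02) up to 12.79 to 12.94 (median 12.89), a 14.5-fold rise. Pltp, the phospholipid transfer protein, went from 7.52 to 7.75 (median 7.65) up to 11.28 to 11.54 (median 11.47), or 13.8-fold. Groups without overlap were a condition for naming these largest rises.

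Mmp14, the membrane-bound collagenase, rose from 7.81 to 8.12 (median 7.97) to a range of 11.26 to 11.47 (median 11.41), which is 10.8-fold. Gadd45a, a stress-induced gene linked to growth arrest, rose 8.90-fold, from 9.85 to 10.08 (median 9.89) up to 12.98 to 13.15 (median 13.08), although its mean at 24 h (8.17) was below the start. Trf, transferrin, which carries iron, rose 8.72-fold, and its receptor gene Tfrc rose 1.74-fold, from 13.32 to 13.67 (median 13.52) up to 14.23 to 14.41 (median 14.31). Tmem176b, a membrane protein of myeloid cells, was 7.62-fold higher. Lack of overlap between the 2 times was required of the largest rises, and Tfrc, chosen from a list, did not overlap either. Ctsa, the lysosomal carboxypeptidase cathepsin A, showed 12.1-fold with the probe that represents it, but its other 4 probes gave log2 changes of 1.83, 1.22, -0.21 and -0.22, so its change depends on the probe.

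**Figure D2:**
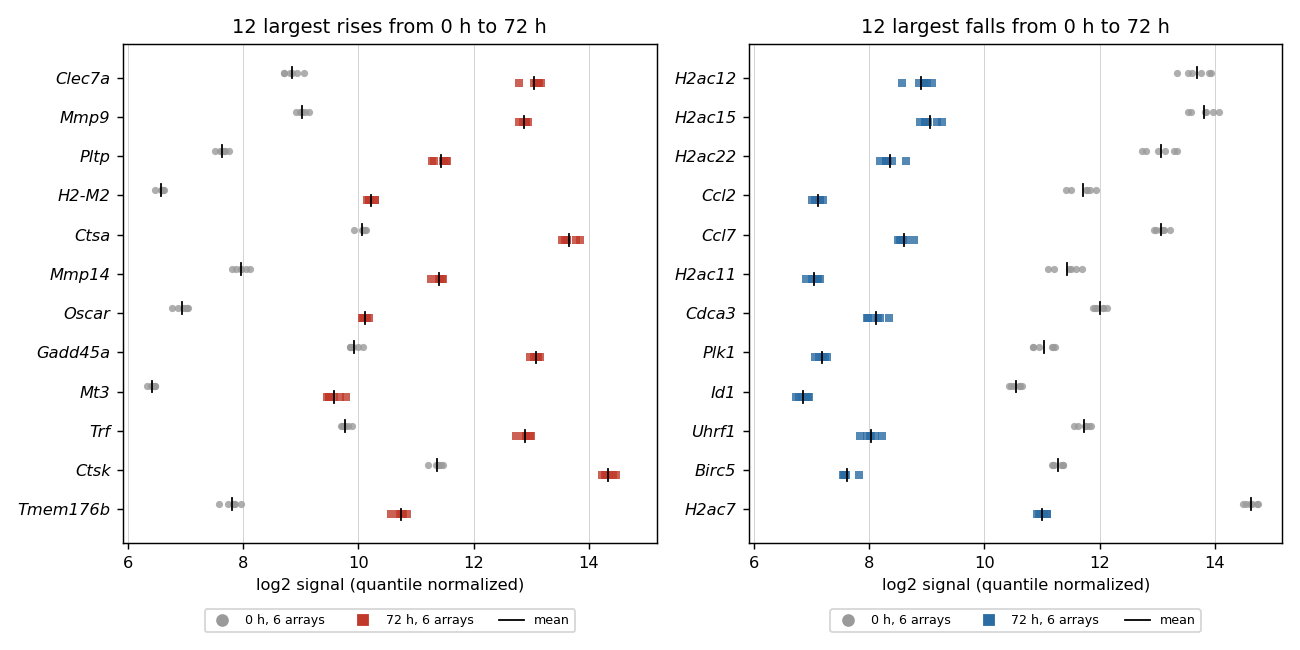
Quantile-normalized log2 signal (horizontal axis) on each of the 6 arrays at 0 h (circles) and the 6 at 72 h (squares) for the 12 largest rises (left) and the 12 largest falls (right), with the mean of each group as a black tick. The genes were chosen among those whose groups do not overlap.

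Some genes crossed from below to above detection. A gene was called gained where its probe was detected on 0 of 6 arrays at 0 h and 6 of 6 at 72 h with an adjusted p under 0.05, which held for 131 genes (1.32%). For these the fold is a lower bound, the mean of the bright group set against a floor: on each array, the dim probe's signal or that of the dimmest detected probe, whichever was higher. H2-M2, a nonclassical MHC class I gene, headed them: its log2 signal was 6.48 to 6.62 at 0 h (median 6.59) and 10.15 to 10.28 at 72 h (median 10.20), at least 8.94-fold higher. Mt3, a metallothionein that binds zinc and copper, went from 6.34 to 6.48 (median 6.43) to a range of 9.45 to 9.78 (median 9.54), at least 5.74-fold higher, and had been brighter at 48 h (mean 10.50).

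Best1, an anion channel, was at least 4.69-fold higher, Htra1, a secreted serine protease, at least 4.3-fold, and Cd4, the T cell coreceptor that some myeloid cells also carry, at least 2.91-fold. Gpcpd1, a glycerophosphocholine phosphodiesterase, was at least 2.68-fold higher and Ralgds, an activator of Ral GTPases, at least 2.60-fold. Htra1 and Ralgds were already detected on all arrays at 24 h, whereas Best1 and Cd4 were first detected at 48 h. Vsig10 was at least 2.67-fold higher by the probe that represents it, while its second probe gave a log2 change of 0.10.

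The reverse, detection on 6 of 6 arrays at 0 h and on 0 of 6 at 72 h, held for 191 genes (1.93%). Id1, an inhibitor of basic helix-loop-helix transcription factors, went from 10.43 to 10.66 (median 10.57) down to 6.73 to 6.96 (median 6.87), at least 11.4-fold lower. Most of that fall was present at 24 h (mean 7.82). Its relative Id3 fell 3.34-fold, from 8.71 to 9.25 (median 9.01) down to 6.92 to 7.38 (median 7.31). Dnmt3l, a cofactor of the de novo DNA methyltransferases, went from 9.90 to 10.26 (median 10.04) down to 6.56 to 6.75 (median 6.60), at least 8.13-fold lower. The mitotic kinesin genes Kif2c and Kif18b were at least 7.71-fold and 6.34-fold lower, the Aurora A partner gene Aunip at least 5.7-fold, the granulocyte gene Retnlg at least 6.61-fold, the chemokine gene Ccl12 at least 6.01-fold and Dmwd at least 6.07-fold.

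Genes of the osteoclast were mostly higher. Of 19 measured genes of the resorption machinery, 15 were higher (78.9%) and 3 lower (15.8%), against 34.2% and 39.4% of all genes tested. The median log2 change was 0.60 against -0.03 over all genes tested. With median scaling 12 were higher and 3 lower. Ctsk, the collagen-degrading cathepsin K, was already bright at 0 h, at 11.21 to 11.46 (median 11.39), and reached 14.22 to 14.47 (median 14.32), a 7.80-fold rise. Oscar, an activating receptor that pairs with the FcR gamma chain, was detected on 1 of 6 arrays at 0 h (6.77 to 7.04, median 6.97) and on all at 72 h (10.07 to 10.18, median 10.11), a 9.04-fold rise. Acp5, whose product is the tartrate-resistant acid phosphatase of the TRAP stain, stayed dim but separate, at 6.85 to 7.04 (median 6.96) against 8.05 to 8.62 (median 8.31), and was 2.62-fold higher. The 3 lower genes were Tnfrsf11a, which encodes the receptor RANK (log2 change -0.66), the anion exchanger gene Slc4a2 (-0.43) and the creatine kinase gene Ckb (-0.12). Itgb3, the beta chain of the vitronectin receptor, was near the detection limit at both times (6.92 to 7.16 and 6.70 to 7.07) and did not pass the test (log2 change -0.09, adjusted p = 0.174). The probe for Atp6v0d2 was detected on no array, and the probes for Calcr, the calcitonin receptor, on at most 2 arrays of the series, so these late osteoclast genes were not tested.

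The transcription factors of the pathway had largely come back by 72 h. Among 12 measured, 6 were higher (50%) and 4 lower (33.3%), against 34.2% and 39.4% of all genes tested. The median log2 change was 1.05 at 24 h, 0.63 at 48 h and 0.19 at 72 h, all taken against the same 0 h arrays. Nfatc1, the factor that drives osteoclast genes, went from 9.66 to 10.06 (median 9.94) up to 10.41 to 10.62 (median 10.57). That is 1.55-fold (adjusted p = 1.1e-11). Its other probes gave log2 changes of 0.70, 0.49 and -0.01. Relb, an NF-kB subunit of the noncanonical arm, was 1.95-fold higher, at 8.32 to 8.46 (median 8.42) and 9.25 to 9.47 (median 9.38). Bhlhe40 was higher by 0.58 on the log2 scale. Fos and Jdp2, both AP-1 members, were 1.33-fold and 1.44-fold lower at 72 h, after means at 24 h of 12.19 and 12.14 that exceeded those at 0 h. Mycl showed the same return: its mean was 11.40 at 24 h, and at 72 h its arrays (6.82 to 7.14) overlapped those at 0 h (6.66 to 7.05), with an adjusted p of 0.191. Spi1, which encodes the myeloid factor PU.1, was 1.18-fold lower. Among 7 repressors of osteoclast genes, 4 were lower (57.1%) and 1 higher (14.3%). Id1 and Id3 fell by most, and Irf8, the higher one, rose 1.34-fold.

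Fusion genes were higher in 8 of 11 cases (72.7%) and lower in 1 (9.09%), against 34.2% and 39.4% of all genes tested. With median scaling 6 were higher and 2 lower. Dcstamp, the fusion receptor DC-STAMP, went from 6.81 to 7.09 (median 6.98) to 8.31 to 8.52 (median 8.42), a 2.70-fold rise that had been reached by 24 h (mean 8.60). Ocstamp, its partner, was detected on all arrays at 24 h and 48 h but on 1 of 6 at 72 h, and its level then (6.93 to 7.21, median 7.03) touched that at 0 h (6.70 to 6.94, median 6.81), a 1.16-fold rise. Cd200, a ligand on fusing macrophages, was 4.66-fold higher, and Cd81, a tetraspanin, 2.12-fold lower. Of 16 subunits of the proton pump (V-ATPase), 9 were higher and 3 lower, none by 2-fold with the probes that represent them. The largest of these changes was that of Atp6v1c1 (12.31 to 12.67 at 0 h, median 12.52, and 13.23 to 13.40 at 72 h, median 13.34), 1.79-fold higher. Other probes gave larger rises for 3 genes, chosen here after their values were seen: 2.68-fold to 3.57-fold for Atp6ap2 (log2 change 0.09 with the probe used, adjusted p = 0.156), 1.45-fold to 3.83-fold for Tcirg1, the osteoclast a3 subunit (1.36-fold with the probe used), and 2.66-fold for Atp6v0a1 (1.36-fold). Scaling the arrays to their medians in place of quantile normalization gave 7 higher and 6 lower subunits.

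Among ITAM adaptors and their kinases 8 of 11 were higher (72.7%) and 2 lower (18.2%), against 34.2% and 39.4% of all genes tested. With median scaling 7 were higher and 2 lower. Blnk and Tec, which act downstream of the ITAM receptors, were higher by 0.995 and 0.769 on the log2 scale, and the abundant adaptor gene Fcer1g gave a log2 change of 0.01 (adjusted p = 0.796). Actin-ring genes went both ways, with 9 of 19 higher and 5 lower, or 8 and 8 with median scaling. Src, the kinase that osteoclasts need to form their ruffled border, went from 7.86 to 8.16 (median 8.09) up to 9.89 to 9.98 (median 9.94), a 3.68-fold rise. Myo10, an unconventional myosin, was 2.86-fold higher. Cfl1, cofilin, which severs actin filaments, went from 10.13 to 10.34 (median 10.30) down to 8.62 to 8.95 (median 8.78), a 2.81-fold fall.

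**Figure D3:**
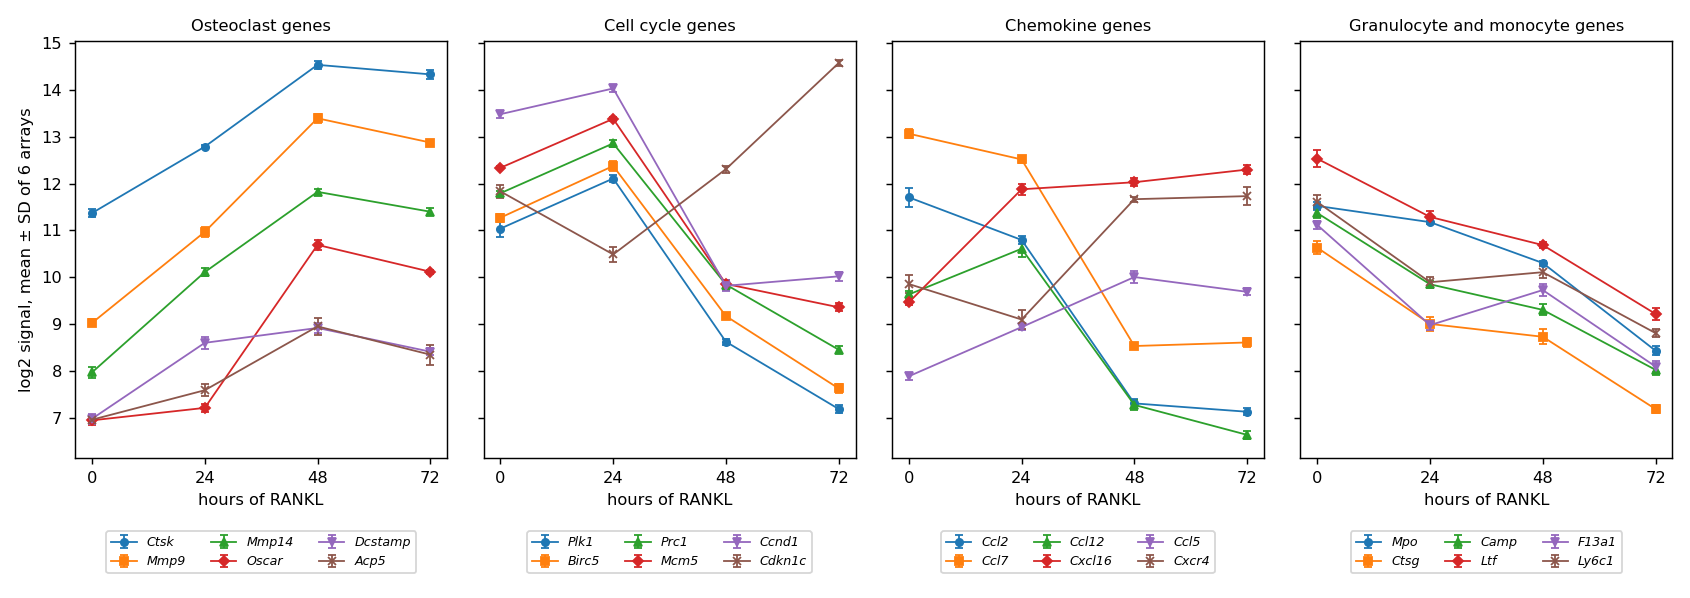
Mean log2 signal with SD of 6 arrays (vertical axis) at 0, 24, 48 and 72 h of RANKL for genes of 4 groups. The osteoclast genes plotted peak at 48 h and end above their start, the other cell cycle genes rise at 24 h before they fall, Cdkn1c ends at its highest mean (14.57), and the granulocyte and monocyte genes end lower than they began.

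Genes of the dividing cell were among the deepest losses. All 20 measured genes of mitosis were lower at 72 h, against 39.4% of all genes tested. Of these 20, 18 were at least 2-fold lower, against 5.23%, and the median log2 change was -2.37. Plk1, the polo-like kinase that starts mitosis, went from 10.84 to 11.23 (median 11.06) down to 7.06 to 7.27 (median 7.20), a 14.5-fold fall (adjusted p = 1.07e-34). Birc5, survivin, went from 11.18 to 11.36 (median 11.27) down to 7.55 to 7.83 (median 7.59), 12.6-fold lower, and its other probes gave falls of 9.84-fold and 10.3-fold. Prc1, which bundles the microtubules of the midzone, was 10.2-fold lower, at 11.73 to 11.88 (median 11.79) and 8.36 to 8.54 (median 8.47). Cdca3, a mitotic entry factor, was 14.7-fold lower.

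Replication genes moved the same way, with 28 of 29 lower (96.6%), against 39.4% of all genes tested, and a median of -1.66. Uhrf1, which maintains DNA methylation after replication, went from 11.56 to 11.85 (median 11.75) down to 7.85 to 8.22 (median 8.03), a 12.9-fold fall. Tk1, thymidine kinase, was 10.4-fold lower and Mcm5, a subunit of the replicative helicase, 7.89-fold lower. The exception was Rfc2, a clamp loader subunit, which was 1.43-fold higher. Neither list fell from the start: the median log2 change against 0 h was 0.85 for mitosis and 0.83 for replication at 24 h, then -1.80 and -1.46 at 48 h. The summed signal of the 20 mitotic genes, background included, was 36640 to 37980 at 0 h and 7381 to 7953 at 72 h.

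Histone H2A genes of the clusters expressed in S phase filled 5 of the 12 largest falls. H2ac12 went from 13.35 to 13.94 (median 13.68) down to 8.58 to 9.10 (median 8.95), 27.3-fold lower. H2ac15 fell by 4.76 on the log2 scale, while H2ac22 was 25.9-fold, H2ac11 20.8-fold and H2ac7 12.3-fold lower. These genes are near-identical copies, so their probes may share transcripts and the values of single copies are uncertain. The H2ac family was chosen after its values were seen. Of its 14 genes tested, 12 were lower and 2 higher, against 39.4% and 34.2% of all genes tested. Their log2 changes ran from -4.77 to 1.02.

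Regulators of the cycle did not share 1 direction. Ccnd1, the cyclin that M-CSF induces to drive cells into S phase, went from 13.36 to 13.57 (median 13.49) down to 9.92 to 10.16 (median 10.00), a log2 change of -3.47. Ccnd3 was 3.18-fold lower, with a log2 change of -0.26 by a dimmer probe. Of the inhibitors, Cdkn1c (p57) went from 11.68 to 12.06 (median 11.83) up to 14.52 to 14.66 (median 14.55), a 6.70-fold rise, while Cdkn1a (p21) was 2.10-fold lower, at 12.79 to 13.03 (median 12.96) and 11.69 to 12.06 (median 11.84), and Cdkn2d (p19) 3.08-fold lower. In all, 4 of these 13 genes were higher (30.8%) and 8 lower (61.5%), against 34.2% and 39.4% of all genes tested.

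Promoters of mitotic genes are known for a CCAAT box next to a cell cycle homology region (CHR). The DREAM and MuvB complexes act through the CHR. The promoters of Plk1 and Prc1, which hold both, are shown beside that of Birc5, whose window holds neither. Each run is 300 bases, 250 before and 50 after the gene's start, 5′ to 3′ on the gene's strand, from RefSeq on GRCm38.p6, and the capitals mark CCAAT (or ATTGG on the other strand) and TTTGAA (or TTCAAA). All 3 lie on the plus strand, at chr7:122159185-122159484, chr7:80294201-80294500 and chr11:117848987-117849286.
Plk1: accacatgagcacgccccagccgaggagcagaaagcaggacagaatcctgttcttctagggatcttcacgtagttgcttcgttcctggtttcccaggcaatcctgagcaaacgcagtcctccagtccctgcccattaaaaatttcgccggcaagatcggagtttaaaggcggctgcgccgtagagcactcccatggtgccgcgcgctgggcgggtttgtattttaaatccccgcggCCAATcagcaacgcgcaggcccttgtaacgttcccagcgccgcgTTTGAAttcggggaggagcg
Prc1: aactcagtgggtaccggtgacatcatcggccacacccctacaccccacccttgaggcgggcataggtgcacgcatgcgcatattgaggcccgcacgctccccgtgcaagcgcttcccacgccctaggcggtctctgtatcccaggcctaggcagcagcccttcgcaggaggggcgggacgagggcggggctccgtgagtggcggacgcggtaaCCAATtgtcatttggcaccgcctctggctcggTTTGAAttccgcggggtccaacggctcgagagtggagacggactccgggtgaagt
Birc5: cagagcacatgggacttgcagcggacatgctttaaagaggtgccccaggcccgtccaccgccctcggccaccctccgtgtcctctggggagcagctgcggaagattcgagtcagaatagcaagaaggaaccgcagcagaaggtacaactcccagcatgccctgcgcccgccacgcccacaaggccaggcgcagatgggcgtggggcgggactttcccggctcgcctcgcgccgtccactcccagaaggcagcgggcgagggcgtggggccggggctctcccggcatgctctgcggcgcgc
A promoter was found for 18 of the 20 mitotic genes, and the first listed was used where a gene had several. CCAAT was found on either strand in 14 of the 18 (77.8%), TTTGAA in 15 (83.3%), and both in 14 (77.8%). Among all 27025 genes with a promoter the shares were 37.9%, 18.1% and 7.12%, among the 8075 tested genes with a promoter 38.8%, 12.2% and 5.14%, and among the 421 of 519 genes at least 2-fold lower that had a promoter 52.5%, 23.8% and 15.4%. On these strands a CCAAT and a TTTGAA match can share at most 1 base, and a match describes the window alone. For Birc5, other promoters, variant letters and bases beyond the window were not searched. The part of these motifs in the falls was not tested.

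The sterol pathway was lower throughout. All 14 measured genes were lower, against 39.4% of all genes tested, and 9 were at least 2-fold lower, against 5.23%. The median log2 change of -1.21 had nearly been reached at 24 h (-1.09). Fdps, farnesyl diphosphate synthase and the target of bisphosphonate drugs, went from 13.63 to 13.85 (median 13.76) down to 11.34 to 11.66 (median 11.48), a 4.74-fold fall, against 2.05-fold by a second probe. Mvk, mevalonate kinase, went from 9.06 to 9.39 (median 9.19) down to 6.87 to 7.24 (median 7.01), where 3 of 6 arrays still detected it, and was 4.58-fold lower. Lss, lanosterol synthase, was 3.88-fold lower, at 10.89 to 11.15 (median 11.03) and 8.95 to 9.32 (median 9.08), whereas its second probe gave a log2 change of -0.06 that did not pass the test. The promoters of Mvk and Lss are shown because CCAAT boxes, which bind NF-Y, are known companions of the sterol-responsive elements of this pathway. They lie on the plus strand of GRCm38.p6 (RefSeq) at chr5:114444019-114444318 and chr10:76531355-76531654, with the same window and the CCAAT or ATTGG letters in capitals.
Mvk: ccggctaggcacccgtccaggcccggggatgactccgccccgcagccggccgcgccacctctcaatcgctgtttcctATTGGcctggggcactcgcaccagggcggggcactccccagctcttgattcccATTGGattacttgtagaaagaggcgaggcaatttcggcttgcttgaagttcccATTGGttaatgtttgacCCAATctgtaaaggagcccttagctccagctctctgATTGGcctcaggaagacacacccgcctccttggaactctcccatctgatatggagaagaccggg
Lss: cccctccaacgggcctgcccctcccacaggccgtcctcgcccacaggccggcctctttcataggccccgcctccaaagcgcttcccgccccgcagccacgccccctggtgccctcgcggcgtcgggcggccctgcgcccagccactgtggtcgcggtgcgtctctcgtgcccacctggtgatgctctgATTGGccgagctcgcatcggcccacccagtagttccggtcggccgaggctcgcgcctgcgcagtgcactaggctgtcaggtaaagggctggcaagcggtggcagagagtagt
CCAAT was found in 11 of the 12 sterol genes with a promoter (91.7%), against 38.8% of the tested genes, and TTTGAA in 1 (8.33%, against 12.2%).

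Energy metabolism fell as well, by smaller amounts. Of 16 glycolytic genes 11 were lower (68.8%) and 1 higher (6.25%), with a median of -0.74. Among all genes tested 39.4% were lower and 34.2% higher, with a median of -0.03. Gapdh, which is often used to scale PCR data, went from 14.22 to 14.48 (median 14.31) down to 13.15 to 13.30 (median 13.20), a 2.15-fold fall. Pkm, pyruvate kinase, was 2.34-fold lower and Slc2a1, the glucose transporter GLUT1, 2.17-fold lower. The exception was Eno2, the neuronal enolase, which went from 8.39 to 8.50 (median 8.45) up to 10.30 to 10.40 (median 10.35), 3.74-fold higher. Of 32 subunits of the respiratory chain and ATP synthase 29 were lower, with a median of -0.43, and 1, Uqcrc2, was 1.12-fold higher, but with median scaling its log2 change was -0.05 and did not pass the test. Only Ndufs8, a complex I subunit, fell by over 2-fold, from 13.05 to 13.21 (median 13.15) down to 11.59 to 11.70 (median 11.66), or 2.79-fold. In the citric acid cycle 9 of 14 genes were lower, Mdh2 by 1.73-fold, and the 3 higher ones were Ogdh, Pdhb and Idh3b at 1.46-fold, 1.28-fold and 1.11-fold. With median scaling Idh3b gave a log2 change of -0.08, which did not pass the test, and a second probe of Pdhb was lower (-0.18).

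Ribosome biogenesis passed through a rise, with a median log2 change of 0.61 at 24 h, and ended lower, with a median of -0.34. At 72 h 17 of 21 genes were lower (81%) and 3 higher (14.3%), against 39.4% and 34.2% of all genes tested. Nop58, a core protein of small nucleolar particles, was 2.44-fold lower, at 10.59 to 10.94 (median 10.71) and 9.37 to 9.62 (median 9.39), and Bop1 and Rrp12 were 2.11-fold and 2.09-fold lower. The 3 higher genes, Gnl3, Pes1 and Wdr43, rose by 1.37-fold, 1.32-fold and 1.16-fold. Wdr43 did not pass the test with median scaling (log2 change 0.09), 75th percentile scaling (0.1) or the authors' processed values (0.15). The ribosomal proteins themselves had a median of 0.01, with 10 of 28 higher and 5 lower, or 1 higher and 9 lower with median scaling, so they had no direction that both scalings share. Rpl22, which went from 8.98 to 9.27 (median 9.23) up to 10.68 to 10.84 (median 10.77), stood out at 3.02-fold.

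**Figure D4:**
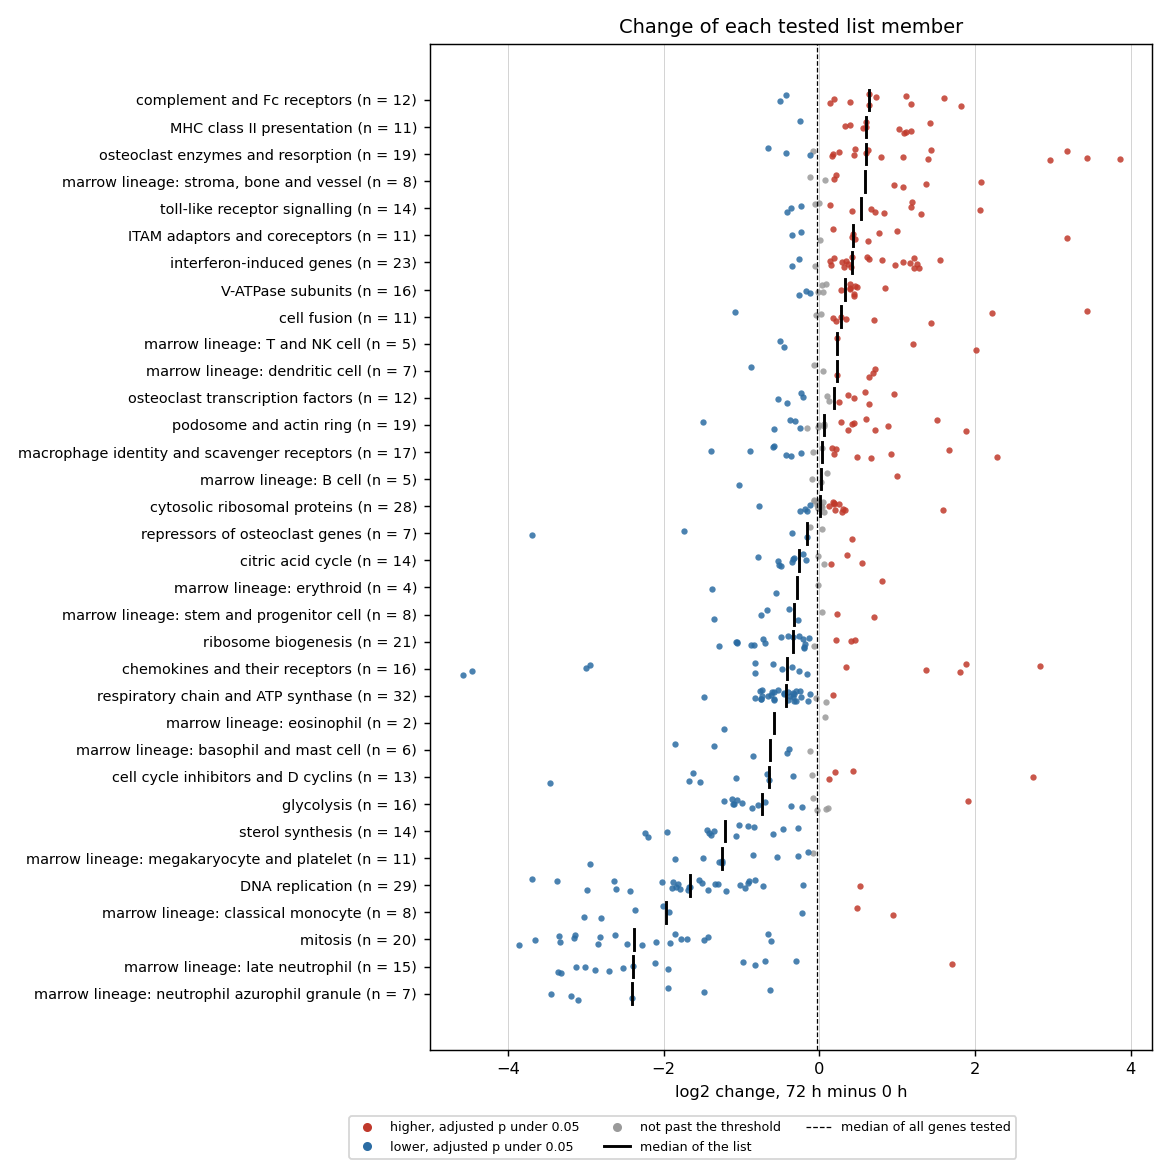
Log2 change from 0 h to 72 h (horizontal axis) of each tested member (points) of the gene lists, with the median of each list (bar) and that of all genes tested (dashed line). The medians run from -2.41 for the azurophil granule genes to 0.64 for complement and Fc receptor genes.

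Chemokine genes split. Ccl2, the main attractant of monocytes, went from 11.41 to 11.93 (median 11.77) down to 7.02 to 7.21 (median 7.15), a 23.9-fold fall. Ccl7, its neighbour on chromosome 11, went from 12.94 to 13.22 (median 13.08) down to 8.51 to 8.78 (median 8.58), a log2 change of -4.46, and a second probe gave a 24.6-fold fall. Both were still high at 24 h, with means of 10.79 and 12.52, and near their final level at 48 h. Cxcl16, a membrane-bound chemokine, went the other way, from 9.40 to 9.54 (median 9.45) up to 12.20 to 12.46 (median 12.29), 7.14-fold higher. Cxcr4, the receptor of CXCL12, was 3.68-fold higher, at 9.68 to 10.18 (median 9.79) and a median of 11.75 (lowest array 11.41), and Ccl5 was 3.49-fold higher. Of the 16 chemokine and receptor genes measured, 5 were higher (31.2%) and 11 lower (68.8%), against 34.2% and 39.4% of all genes tested.

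The macrophage genes had no shared direction. Of 17, 8 were higher (47.1%) and 7 lower (41.2%), against 34.2% and 39.4% of all genes tested, with a median of 0.04. With median scaling 6 were higher and 8 lower, with a median of -0.02. Csf1r, the M-CSF receptor, went from 12.19 to 12.42 (median 12.26) up to 12.89 to 13.01 (median 12.94), 1.59-fold higher, with 2.24-fold by a second probe. Adgre1 (F4/80) was 1.39-fold higher, at 12.16 to 12.32 (median 12.25) and 12.58 to 12.80 (median 12.75), and its other probes gave 1.46-fold and 6.69-fold. Lyz2, lysozyme M, sat near the top of the scale at both times, 14.65 to 14.84 and 14.74 to 14.84, with a log2 change of 0.04 (adjusted p = 0.422), and its second-brightest probe gave 0.40, which passed. The receptors for apoptotic cells rose, Mertk 4.84-fold (9.21 to 9.43, median 9.40, and 11.55 to 11.70, median 11.65) and Axl 3.18-fold. Marco, a scavenger receptor, fell 2.63-fold, from 8.75 to 9.05 (median 8.90) down to 7.37 to 7.65 (median 7.52), and Cd163 was at least 1.1-fold lower, its probe being detected on no array at 72 h.

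Immune-recognition genes mostly ended higher, where 34.2% of all genes tested were higher and 39.4% lower. MHC class II presentation had 10 of 11 genes higher and 1 lower, with medians of -0.61 at 24 h, 1.04 at 48 h and 0.60 at 72 h. H2-Ab1 was 2.15-fold and H2-Eb1 2.25-fold higher, and Ctss, the protease that trims the invariant chain, was 2.67-fold higher, while the costimulator gene Cd80 was 1.19-fold lower. Complement and Fc receptors had 10 of 12 higher and 2 lower, or 8 and 2 with median scaling. C1qa went from 9.92 to 10.01 (median 9.98) up to 11.60 to 11.88 (median 11.84), 3.52-fold higher, and Fcgr2b, the inhibitory Fc receptor, was 3.02-fold higher, with 2.70-fold and a log2 change of -0.04 by its other probes. Cfp, properdin, was 1.42-fold lower. Of 14 genes of Toll-like receptor signalling, 9 were higher and 3 lower, or 8 and 4 with median scaling. Tlr8 was 4.17-fold, Tlr1 2.47-fold and the endosomal chaperone gene Unc93b1 2.29-fold higher, and Tlr4 was 1.33-fold lower. Interferon-induced genes, at a median log2 change of 2.27 at 24 h and 1.61 at 48 h, had fallen back to 0.41 with 20 of 23 still higher and 2 lower. Ifit3 shows the course, with means of 12.56 at 24 h and 12.28 at 48 h and a final level of 10.55 to 10.61 (median 10.60) against 9.14 to 9.38 (median 9.34), 2.43-fold higher.

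Markers of marrow lineages besides macrophages were measurable at 0 h, and those of granulocytes, monocytes and platelets were dimmer at 72 h. Among all genes tested 39.4% were lower and 34.2% higher. The 7 markers of the azurophil granule, made by early granulocytes, were all lower, with a median log2 change of -2.41. Mpo, myeloperoxidase, went from 11.35 to 11.59 (median 11.55) down to 8.32 to 8.57 (median 8.42), 8.54-fold lower. Ctsg, cathepsin G, went from 10.46 to 10.79 (median 10.65) down to 7.06 to 7.30 (median 7.17), 10.9-fold lower. Prtn3, Elane and the factor gene Cebpe were 9.11-fold, 5.31-fold and 3.85-fold lower. At 72 h Cebpe was detected on 1 of 6 arrays and Ms4a3 on 0, and the other 5 markers on 4 or more. The summed signal of the 7 markers, with background, was 8268 to 9090 at 0 h and 1291 to 1371 at 72 h.

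Of the 15 markers of later neutrophils, 14 were lower (93.3%) and 1 higher (6.67%), against 39.4% and 34.2% of all genes tested. Their median was -2.40, with summed signals of 58130 to 63590 and 12630 to 14100. Camp, the cathelicidin of specific granules, went from 11.23 to 11.52 (median 11.36) down to 7.84 to 8.15 (median 8.05), 10.2-fold lower. Ltf, lactoferrin, was 9.97-fold lower, at 12.31 to 12.74 (median 12.52) and 9.08 to 9.44 (median 9.18). S100a8, the calprotectin subunit, fell 3.85-fold but stayed bright, from 14.50 to 14.78 (median 14.63) to 12.58 to 12.87 (median 12.65). The exception, Csf3r, which encodes the G-CSF receptor that monocytes also carry, went from 8.28 to 8.58 (median 8.46) up to 9.90 to 10.34 (median 10.11), 3.26-fold higher, and its other 3 probes were 1.58-fold, 2.01-fold and 2.63-fold higher.

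Classical monocyte markers fell in 6 of 8 cases (75%), against 39.4% of all genes tested, with a median of -1.97. F13a1, the coagulation factor XIII A chain, went from a median of 11.11 (highest array 11.26) down to 7.94 to 8.28 (median 8.09), 8.14-fold lower, and Ly6c1 was 6.97-fold lower, at 11.46 to 11.84 (median 11.54) and 8.72 to 8.97 (median 8.78). S100a4, Hp and Plac8 were 5.17-fold, 4.02-fold and 3.83-fold lower. The 2 higher members were Fn1, fibronectin, at least 1.41-fold higher from below detection, and Ms4a6c, 1.40-fold higher. The summed signal was 9965 to 11620 at 0 h and 2230 to 2474 at 72 h, and the probes for Ccr2 were detected on no array.

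Megakaryocyte and platelet markers were lower in 10 of 11 cases (90.9%), against 39.4% of all genes tested. Their median was -1.25, with summed signals of 13200 to 14910 and 5067 to 5329. Pf4, platelet factor 4, went from 12.24 to 12.63 (median 12.45) down to 9.30 to 9.66 (median 9.51), 7.73-fold lower, and the von Willebrand receptor gene Gp1bb was 3.62-fold lower. Vwf, which endothelium also makes, was 1.21-fold lower. Of 6 basophil and mast cell markers 5 were lower, among them Hdc, histidine decarboxylase, by 3.62-fold and Kit, the receptor of stem cell factor, by 2.54-fold. Kit was lower at 24 h (mean 7.93) than at 72 h (8.42 to 8.68, median 8.59). The summed signal of these 6 was 2111 to 2503 at 0 h and 1018 to 1097 at 72 h, and the granule protease genes Mcpt8, Mcpt4, Cma1 and Tpsb2 were detected on no array. Of the eosinophil markers only Prg2 and Il5ra were measurable. Prg2 was 2.35-fold lower and Il5ra gave a log2 change of 0.07 (adjusted p = 0.218).

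Few erythroid markers were tested, 4 of 15, of which 1 was higher and 2 lower, while Alas2, Klf1, Gata1 and Slc4a1 were detected on no array. Among all genes tested 34.2% were higher and 39.4% lower. Counts from so few markers, here and for the lymphoid and dendritic cell lists, are not read as a direction of the lineage. Hbb-bt, a beta globin, fell 2.61-fold, and Hba-a1, an alpha globin, fell 1.48-fold, from 8.55 to 8.81 (median 8.68) to 8.03 to 8.36 (median 8.09). Hba-a1 had been detected on 0 arrays at 24 h and at 48 h. Tfrc, which is not particular to red cells, was the higher one (1.74-fold), and Epor, the erythropoietin receptor, gave a log2 change of -0.02 (adjusted p = 0.698). The summed signal, in which Tfrc was by far the brightest, was 11130 to 14040 at 0 h and 19860 to 22350 at 72 h. Lymphoid markers were mostly below detection. The T cell genes Cd3d, Cd3e and Cd3g and the B cell genes Pax5 and Rag1 were detected on no array. Of the 5 T and NK cell markers tested 3 were higher and 2 lower, with a median of 0.23 and summed signals of 6361 to 7703 and 9295 to 10210. Besides Cd4, which was gained, Il7r, the interleukin 7 receptor, was 2.29-fold higher, at 11.27 to 11.59 (median 11.38) and 12.52 to 12.68 (median 12.58), and its other probes gave 1.45-fold to 5.19-fold. The perforin gene Prf1 was 1.17-fold higher, a call lost without replicate 2 or 5, and Cd8b1 and Nkg7 were 1.36-fold and 1.42-fold lower, although a dimmer Cd8b1 probe gave a log2 change of 0.03. Of the 5 B cell markers 1 was higher and 1 lower, with a median of 0.03: Blnk, named above with the ITAM adaptors, and Cd79b, a chain of the B cell receptor, which was 2.05-fold lower. Their summed signal was 1961 to 2151 at 0 h and 3102 to 3466 at 72 h, with Blnk the only member called higher. Among 7 dendritic cell markers 4 were higher and 1, Ly6d, lower, with a median of 0.23 and summed signals of 2953 to 3394 and 4193 to 5404, while Flt3 and Xcr1 were detected on no array.

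Of the stem and progenitor markers 5 of 8 were lower (62.5%) and 2 higher (25%), with a median of -0.33. Among all genes tested 39.4% were lower and 34.2% higher, and so few markers are not read as a direction of the lineage. Myc was at least 1.41-fold lower, after a mean of 8.70 at 24 h against 7.45 to 7.69 at 0 h. Of the 8 measured genes of stroma, bone and vessel 6 were higher and 0 lower, with a median of 0.59. Dcn, decorin, went from 6.95 to 7.22 (median 7.07), detected on 3 of 6 arrays, up to a median of 9.18 (highest array 9.25), 4.23-fold higher. Bgn, biglycan, was 2.58-fold higher, at 8.27 to 8.56 (median 8.40) and 9.58 to 9.88 (median 9.80), and Col1a1, the alpha chain of type I collagen, 2.11-fold higher, at 6.89 to 7.11 (median 6.98) and 7.92 to 8.20 (median 8.08). The summed signal of the 8 was 25090 to 29940 and 31830 to 34400. Dcn, Bgn and Col1a1 made up a small part of it, so the sum mainly reflects other members of the list. The defining stromal genes Col3a1, Lum, Pdgfrb and Kitl were detected on no array, nor were the osteoblast genes Bglap, Ibsp and Sp7.

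**Figure D5:**
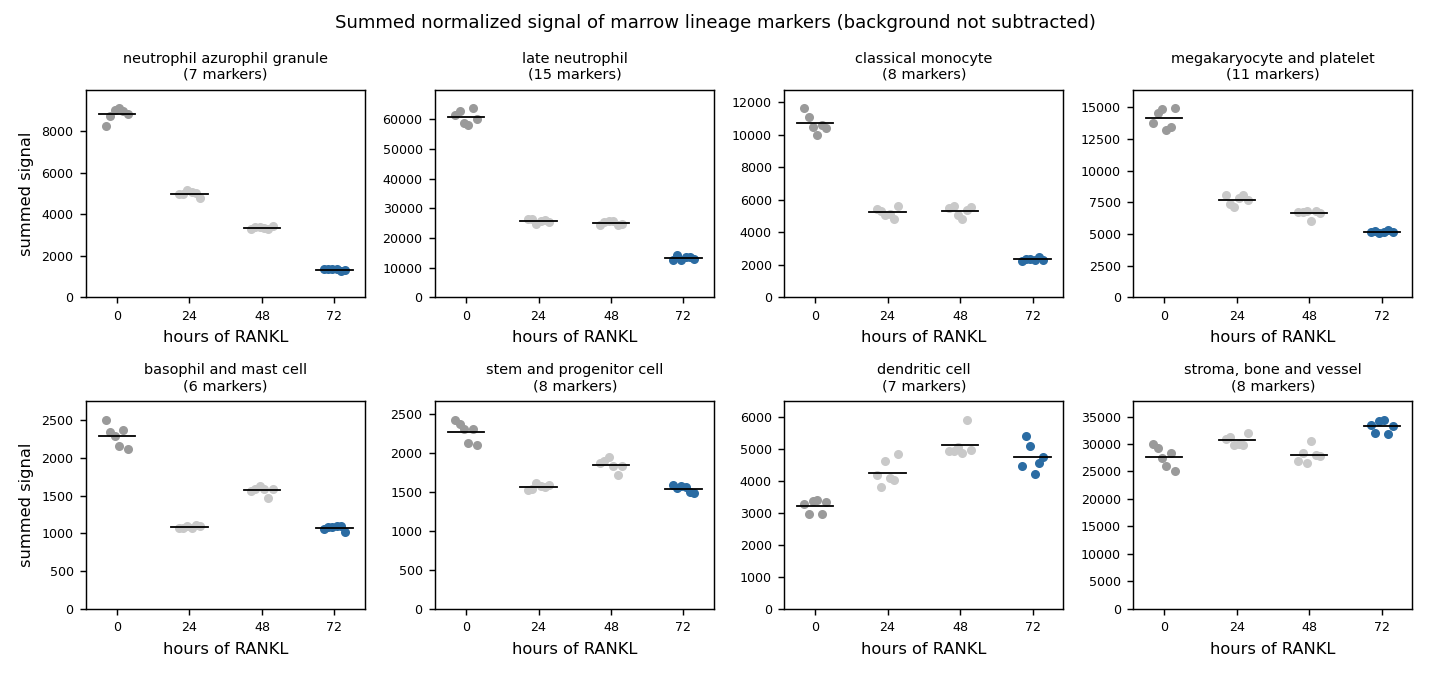
Summed quantile-normalized signal, background included, of the measured markers of 8 lineages (vertical axes from 0) on each array at 0, 24, 48 and 72 h of RANKL, with the mean of 6 arrays as a bar. The granulocyte, monocyte and platelet sums at 72 h lie below every array at 0 h, and the dendritic cell and stroma sums lie above. The stroma sum comes mainly from members other than Dcn, Bgn and Col1a1.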

How the data were processed

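RNA of 24 BMM samples was hybridised to mouse Illumina bead arrays. The authors read the arrays out with Illumina GenomeStudio, and the deposited table holds per array the probes' signal intensity, neither normalized nor background-subtracted. Beside it stands a deposited detection p-value, used here to call a probe detected. A second deposited table holds log2 values processed by the authors, which served as an alternative. The study's methods name log transformation and quantile normalization, but the arrays of this table do not share 1 distribution (medians from 1.90 to 1.99). The labels and the paper name different labelling kits.

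The signals were log2-transformed, and the 24 arrays were brought to 1 distribution (quantile method, as in the study's methods) with limma 3.58.1 in R 4.3.3. Of 45281 probes, the annotation gives 1 gene symbol for 34885, several for 18 and none for 10378. A probe was kept where 3 or more of the 6 arrays of any time detected it at p under 0.05 (18346 probes, of which 15558 name 1 gene), and each gene was taken from its kept probe of highest mean signal. Of the 53 genes named that have other kept probes, 33 had a probe whose change was over 1.5 times apart from that used, and 5 one of opposite sign. Sums of list members use the normalized signals. Each gene was fitted over the 4 times (eBayes with a trend, 20 residual degrees of freedom), 72 h was compared with 0 h, and Benjamini-Hochberg adjustment ran over 9917 genes. The adjusted p-values in the text are from this limma fit. The number of arrays limits the precision.

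The members, gene lists and rule for named genes were chosen with earlier results of these data known. The rule takes the 12 largest rises and 12 largest falls without overlap between the groups, up to 8 genes gained and 8 lost by their lower bound, from each list at most 3 genes that rose, 3 that fell and 2 that did not pass, all members of the lineage lists, and a set of known markers, without unnamed clones. Listed genes without a probe paired in the annotation, among them Cd68 and Mki67, are not analysed here. Promoters were matched by symbol to the RefSeq table, and motif shares are given for sets with at least 80% matched. Alternatives were other background corrections, scalings, probe filters and choices of probe, the authors' processed values, eBayes without trend, the 12 arrays alone, the methods' t-test, the replicate number as a block, other fold and detection thresholds, and each replicate left out. Figures were drawn with matplotlib 3.10.9.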

Additional observations from a re-analysis of the deposited data

Results flagged for a closer look

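In 21 of 312 groups of 6 arrays of the genes named, 1 array stood apart from the other 5 by Dixon's criterion, where chance alone gives about 1 in 20. Replicate 4 at 72 h was the array in 8 of them. It was the highest at 72 h for Birc5 (log2 signal 7.83), Ccl12 (6.80), Hba-a1 (8.36) and Lss (9.32), and the lowest for Clec7a (12.79), Ctss (11.70), Mmp14 (11.26) and Rrp12 (9.65). Each of these values still lay on the far side of all arrays at 0 h. Without that array, an alternative chosen after the data were seen, 3341 genes were higher and 3911 lower. Other arrays that stood apart at 72 h were replicate 1 for Cd79b (6.90) and Cebpe (7.19), replicate 3 for Cd8b1 (11.20), replicate 5 for Cfp (13.89) and Ocstamp (7.21), and replicate 6 for Id3 (6.92). At 0 h they were replicate 1 for Mpo (11.35), replicate 2 for Aunip (9.47) and Ctsa (9.93), replicate 3 for H2-M2 (6.48), and replicate 4 for Cd81 (13.15), Relb (8.32) and S100a4 (10.98).

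The comparison of genes left out 2788 kept probes that the annotation does not give 1 gene symbol. Of these, 936 were higher and 763 lower at 72 h (60.9% in all), and 111 were at least 2-fold higher and 89 at least 2-fold lower.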

How the results depend on the processing

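The second-highest probe, which exists for 3834 genes, gave 1520 genes higher, 1294 lower and 81 lost. The methods' t-test gave 1381 higher and 1651 lower with Bonferroni adjustment over all genes, and 3271 and 3775 with Benjamini-Hochberg adjustment. Thresholds of 1.5-fold and 2-fold left 1159 and 452 genes higher and 1360 and 519 lower. Allowing detection on at most 1 and at least 5 of 6 arrays gave 227 genes gained and 289 lost. Leaving out each replicate number in turn gave 3261 to 3356 genes higher, 3768 to 3919 lower, 136 to 154 gained and 201 to 216 lost. Median scaling gave 2573 higher and 4455 lower, so that 36.6% of calls were higher against 46.5%, and the second-highest probe gave 54%. The other alternatives kept these counts within 1.5 times.

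The replicate numbers are not known to pair the samples: the correlation of same-numbered samples' deviations ranged from -0.07 to 0.48, and not every sample was closest to its own number. With the number as a block, 3479 genes were higher, 4021 lower, 132 gained and 191 lost.

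Of 3172 alternative values of the 156 genes named, 3121 kept their call, 38 lost it without a change of sign and 6 gained it. In the other 7 a called change took the opposite sign, whether or not the new value passed the test. Uqcrc2 turned to -0.05 with median and -0.04 with 75th percentile scaling, Idh3b to -0.08, -0.07 and, in the authors' processed values, -0.02, and, with the second probe, Pdhb to -0.18 and Cd8b1 to 0.03. Ckb did not pass without replicate 2 (log2 change -0.09), nor Idh3b without replicate 6 (0.14), nor Prf1 without replicate 2 (0.19), 5 (0.20) or the 72 h array of replicate 4 (0.21). Signals near the detection limit hold background, so folds of dim probes are compressed.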
